A study of Homo sapiens with 8 samples.

Results

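The untreated state of MDA-MB-231, an established human breast cancer cell line derived from a metastatic tumour, was described from 4 arrays, replicates A to D, of the 8 at hand. They were picked by their titles alone, and the other 4 arrays, of the same cells given TGFβ, entered no value. The cells had been infected with a retroviral construct for a short hairpin RNA against GFP (shGFP), a jellyfish protein that human cells do not make, so the hairpin is the study's control. They were kept in DMEM/F12 medium with 10% serum and 2 mM glutamine, and per the labels' protocols serum was withdrawn for 24 h. Per the labels these 4 samples were left untreated. Whether the infected cells were 1 clone or a mixed population is not given in the sources used here. Per the labels these are biological replicas, but separate cultures are not named, so the spread between them may be in part technical.

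MDA-MB-231 is widely used as a model of mesenchymal-like breast cancer that lacks the oestrogen receptor, the progesterone receptor and high levels of ERBB2. Such cells have given up much of the epithelial programme of luminal breast cells, in which E-cadherin holds neighbours together and keratins form the cytoskeleton, and carry vimentin, ZEB factors and matrix genes in its place. A baseline survey of receptors, ligands and pathway parts lists which signals such a culture could send and receive before any factor is added.

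Each array gave 1 RMA signal on the log2 scale for each of 54613 probe sets, and 41091 of those name 1 gene. Each gene was represented by its brightest probe set on these 4 arrays. This left 19775 genes, of which 10523 had a choice of at least 2 probe sets. RMA gives no detection call, so a floor was taken from 127 olfactory, taste and vomeronasal receptor genes, which a breast cell has little reason to transcribe. The 95th percentile of their mean signals was 5.30, and a gene was counted as above the floor when its lowest array exceeded that value. The 99th percentile of the same genes, 7.40, served as a stricter bound. Signals of different probe sets depend on probe affinity, so levels are given per gene and no gene is said to be more abundant than another. There is 1 group, so no test between groups was made, and every error is the SD over 4 arrays. Arrays A and B lay farther from the others than C and D did. Between their lowest and highest array 300 genes above the floor spanned over 1. With the floor and the calls taken anew from the remaining arrays, the number was 88 without array A and 147 without array B.

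Of the 7 markers by which the line was checked, CDH1 alone was not above the floor. VIM, the intermediate filament vimentin, read 13.64, 13.8, 13.56 and 13.55 on arrays A to D. CD44, the hyaluronan receptor, read 10.9, 11.74, 11.23 and 11.41, and KRT18, a simple epithelial keratin, read 11.88, 11.91, 12.17 and 12.1 in its 1 probe set, whose name marks possible cross-matching. These 3 markers lay above the floor on every array, at percentiles 99.9, 98.3 and 99.2 of all genes. EGFR, the receptor for epidermal growth factor, read 10.79, 10.92, 10.62 and 10.36, and 6 of its 9 probe sets were above the floor. CDH1, which encodes E-cadherin, read 4.19, 3.93, 4.05 and 4.14 and lay below the floor on all 4 arrays in both of its probe sets. ERBB2, the HER2 receptor, read 7.17, 7.19, 7.1 and 7.39, above the floor but under the stricter bound on all 4 arrays, with 1 of 3 probe sets above the floor. ESR1, the oestrogen receptor, read 5.74, 5.66, 5.77 and 5.85 in its highest probe set, so its call is a weak one. Only 2 of its 9 probe sets exceeded the floor, and the lowest read 2.41, so the probe sets of ESR1 disagree on whether it can be told from background.

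Across the genome 10607 of 19775 genes, 53.6%, were above the floor on all 4 arrays, and 5660 genes, 28.6%, were above the stricter bound. A further 985 genes were above the floor on some arrays only, and 8183 on none. The median gene had a mean signal of 5.81, the 75th percentile of the genes was 7.92, and 1251 genes reached 10. Protein-coding genes were above the floor in 10157 of 16521 cases (61.5%) and long non-coding RNA genes in 321 of 2658 (12.1%). The number of probe sets matters here, because the best of several was kept: 37.3% of genes with 1 probe set were above the floor, 59.3% with 2, 71.8% with 3 and 80.1% with 4 or more. Among the 7157 genes above the floor with at least 2 probe sets, all probe sets were above it in 2368 (33.1%).

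**Figure D1:**
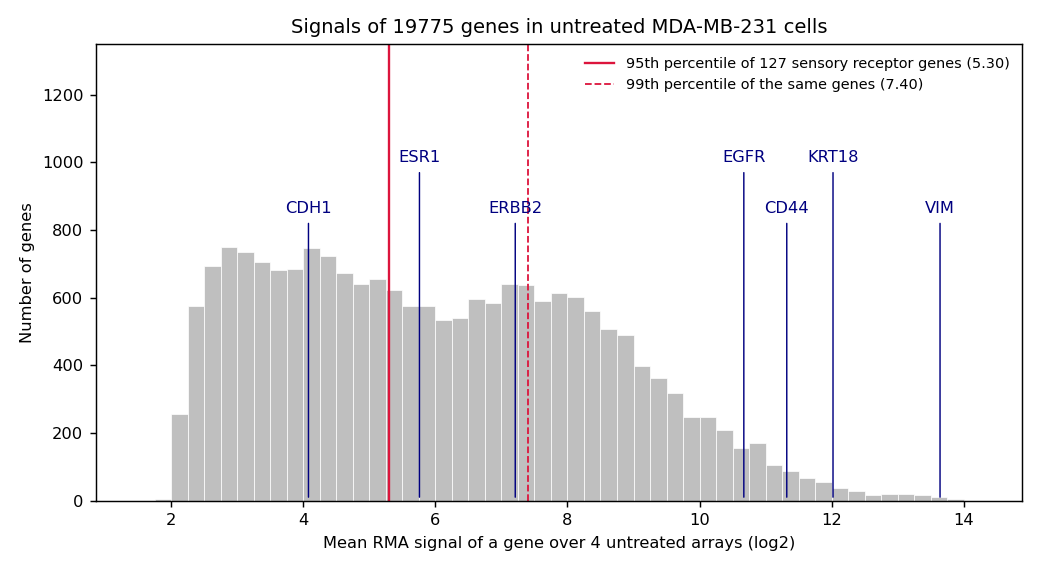
Histogram of the mean log2 RMA signal of 19775 genes over the 4 untreated arrays, with the number of genes on the vertical axis and the 95th (5.30, solid line) and 99th (7.40, dashed line) percentiles of 127 sensory receptor genes. The 7 markers are placed at their means: CDH1 lies left of the solid line, ESR1 and ERBB2 between the lines, and EGFR, CD44, KRT18 and VIM right of both.

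The 25 highest signals, between 13.38 and 13.84, came mostly from the protein-making and energy machinery of the cell. Of them 14 are ribosomal proteins, among them RPL37A (13.81 ± 0.02) and RPS18 (13.71 ± 0.02), and 3 come from the mitochondrial genome: ATP6 (13.84 ± 0.04), ND4 (13.81 ± 0.05) and COX2 (13.7 ± 0.07). EEF1A1, the factor that brings transfer RNA to the ribosome, read 13.77 ± 0.06, and the actin gene ACTB read 13.66 ± 0.06. VIM was also among these 25 genes, beside TMSB10, which binds actin monomers (13.61 ± 0.07), and S100A6, a calcium-binding protein (13.58 ± 0.05). The SD of the 25 genes ran from 0.018 to 0.116.

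Whether a gene was above the floor went with the CpG content of its promoter. Many human promoters lie in CpG islands, stretches that kept their CpG dinucleotides, and such promoters are common among genes used in most cells, whereas CpG-poor promoters are common among genes used in few tissues. The 250 bases before the first listed start were taken from RefSeq (GRCh38.p14) for the 15382 genes that matched, 57.0% of which were above the floor. Their ratio of observed to expected CpG had a median of 0.83 in the 8765 genes above the floor and 0.46 in the 6617 others. GC content had medians of 65.2% and 57.2%. From the CpG-poorest decile of the genes to the richest, the share above the floor went from 16.3% to 78.8%, and most of that rise fell in the lower deciles. The letters TATAAA, searched on both strands, were in 5.16% of promoters of genes above the floor and in 12.5% of the others, against 8.31% of all matched genes and 11.1% of the 27305 genes in the promoter table. These are descriptions across genes, which are not independent replicates, and a letter match is not a site.

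The following 4 upstream windows show CpG-poor, middling and CpG-rich starts of genes described below, and AGR2 and FOXA1 are exceptions to the relation. CpG dinucleotides are in capitals, each window reads 5′ to 3′ on the gene's own strand and ends at the base before the start. VIM (chr10:17227991-17228240, plus strand) and AGR2 (chr7:16805000-16805249, minus strand) are 2 high-signal genes with windows in CpG deciles 4 and 2. FOXA1 (chr14:37595250-37595499, minus strand) is a gene below the floor with a window in decile 9. MTAP (chr9:21802386-21802635, plus strand) lies in a run of chromosome 9 genes of which none was above the floor.
VIM: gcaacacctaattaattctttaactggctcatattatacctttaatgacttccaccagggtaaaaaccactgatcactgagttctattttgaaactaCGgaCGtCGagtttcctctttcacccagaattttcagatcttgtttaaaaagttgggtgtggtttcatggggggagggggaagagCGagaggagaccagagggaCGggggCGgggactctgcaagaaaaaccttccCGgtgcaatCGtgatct
AGR2: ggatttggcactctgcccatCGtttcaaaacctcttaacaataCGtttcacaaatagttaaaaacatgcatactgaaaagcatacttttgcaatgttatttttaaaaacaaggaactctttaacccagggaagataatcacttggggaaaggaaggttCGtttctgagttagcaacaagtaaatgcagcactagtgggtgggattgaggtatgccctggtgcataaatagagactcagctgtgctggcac
FOXA1: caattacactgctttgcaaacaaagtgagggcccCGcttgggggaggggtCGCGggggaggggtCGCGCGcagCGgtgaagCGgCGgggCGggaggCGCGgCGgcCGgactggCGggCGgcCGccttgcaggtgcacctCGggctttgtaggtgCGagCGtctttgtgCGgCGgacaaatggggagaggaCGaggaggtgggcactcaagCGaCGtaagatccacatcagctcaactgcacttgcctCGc
MTAP: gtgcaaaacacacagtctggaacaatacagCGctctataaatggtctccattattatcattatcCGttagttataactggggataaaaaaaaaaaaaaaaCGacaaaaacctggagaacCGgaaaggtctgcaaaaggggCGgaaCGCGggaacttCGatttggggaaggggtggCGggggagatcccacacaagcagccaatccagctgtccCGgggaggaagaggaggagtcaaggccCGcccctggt
The VIM window holds 8 CpG at a ratio of 0.61 and the AGR2 window 3 at 0.30, while the FOXA1 window holds 26 at 0.98 and the MTAP window 11 at 0.72. AGR2 read 11.03 ± 0.2 with the CpG-poor window, and FOXA1 2.92 ± 0.17 with the CpG-rich one. Other genes went against the relation too: 327 genes of the richest decile were not above the floor, 251 of the poorest decile were, and 24 of the poorest decile had a mean of at least 10.

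**Figure D2:**
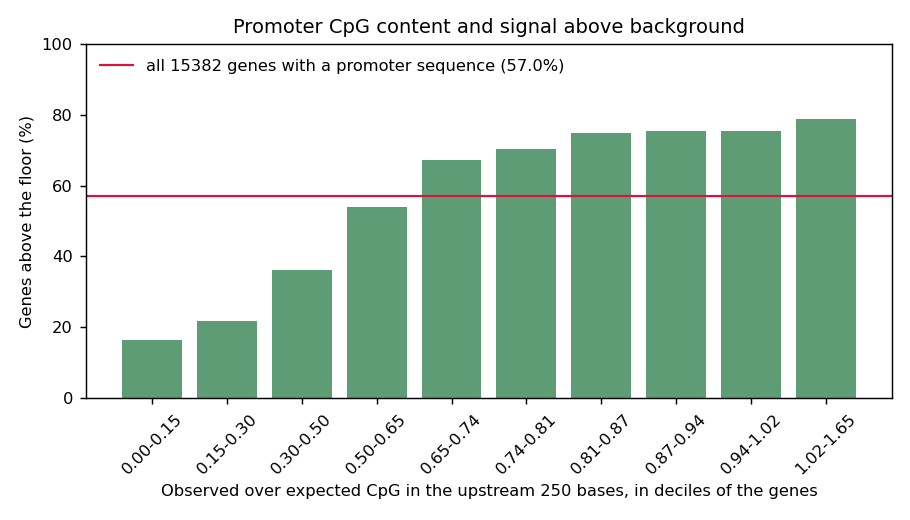
Bars give the percentage of genes above the floor in each decile of 15382 genes, ordered by the observed over expected CpG ratio of the 250 bases upstream (range of ratios under each bar), and the line marks 57.0%, the share over all of them. The bars go from 16.3% in the poorest decile to 78.8% in the richest and flatten over the richer deciles.

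Of 22 measured mesenchymal markers 14 were above the floor (63.6%), against 53.6% of all genes and near the 61.5% of protein-coding ones. Above the stricter bound were 13, with a list median of 8.7 against 5.81 over all genes. The filament, matrix and membrane genes were the high part of the list. LGALS1, a galactose-binding lectin, read 12.92, 13.0, 12.8 and 12.86, and S100A4, a calcium-binding protein of migrating cells, read 12.58, 13.11, 12.86 and 13.01. MSN, which ties actin to the membrane, had a mean of 11.79 ± 0.14, and the caveolin CAV1 of 11.06 ± 0.19. FN1, the matrix protein fibronectin, read 11.13, 12.23, 11.42 and 11.6, with array B above the other 3 arrays. AXL, a receptor tyrosine kinase of mesenchymal cells, read 9.62, 10.01, 9.09 and 10.14, lowest on array C. ZEB1, a repressor of epithelial genes, read 9.05, 9.35, 8.4 and 8.54, and SNAI2, another such repressor, 8.31, 8.75, 8.59 and 8.65. Other genes of the list had no probe set above the floor. ZEB2 (3.38 ± 0.37), SNAI1 (4.77 ± 0.06), TWIST1 (2.07 ± 0.27), TWIST2 (3.12 ± 0.21), the cadherin CDH2 (5.05 ± 0.16) and the matrix gene SPARC (3.06 ± 0.13) were of this kind.

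Luminal genes were split. Of 23 measured members 16 were above the floor, which is 69.6% against 53.6% of all genes and 61.5% of protein-coding ones. Above the stricter bound were 10, with a list median of 7.21. Keratins and secreted products made up the upper part: KRT19 read 11.47 ± 0.14, KRT8 9.72 ± 0.22 and KRT7 9.6 ± 0.31. AGR2, a folding enzyme of secretory epithelium, read 10.94, 10.82, 11.28 and 11.08, and TFF1, a secreted trefoil peptide long used as an oestrogen-response marker, read 9.43, 9.73, 9.53 and 9.41. MLPH, which links pigment vesicles to myosin, had a mean of 10.24 ± 0.2, TFF3 of 8.46 ± 0.09 and SPDEF, an ETS factor of secretory cells, of 9.23 ± 0.12. The SPDEF signal rests on 5 probe sets whose names mark possible cross-matching, with means from 5.89 upward. The receptors and factors that define hormone-responsive luminal cells were lower. PGR, the progesterone receptor, read 3.16, 3.03, 3.2 and 3.08, and FOXA1, which opens chromatin for the oestrogen receptor, 2.78, 2.83, 3.16 and 2.88. Other luminal genes, not all of them tied to hormone response, were also below the floor on all 4 arrays: ELF5, KIT, PRLR and ERBB4. Their means ran from 3.18 for KIT to 4.43 for PRLR. ELF3, an ETS factor of epithelia, read 6.57, 5.78, 5.87 and 6.18, the widest spread among luminal markers above the floor. GATA3, a luminal transcription factor, read 7.57 ± 0.16 in 1 probe set, while its other 2 lay below the floor.

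Basal and myoepithelial markers were above the floor in 10 of 17 cases (58.8%), near the 53.6% of all genes and the 61.5% of protein-coding ones, and 6 were above the stricter bound. SFN, a 14-3-3 protein of squamous cells, read 12.36, 12.53, 12.42 and 12.5, and LAMB3, a chain of laminin in the epithelial basement membrane, 10.69, 10.64, 10.16 and 10.36. ITGA6 and ITGB4 form the integrin that binds that laminin; ITGA6 read 10.12, 10.71, 10.0 and 10.03 and ITGB4 8.66, 9.15, 8.01 and 8.07, both highest on array B. Most basal keratins listed were below the floor: KRT5 read 4.15 ± 0.15, KRT14 3.34 ± 0.28 and KRT16 3.7 ± 0.19. KRT15 was above it, at 6.36 ± 0.33. ACTA2, smooth muscle actin, read 6.42, 5.59, 5.68 and 5.68, highest on array A, and OXTR, the oxytocin receptor, was above the floor on some arrays only.

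Junction and polarity genes were above the floor in 16 of 26 cases (61.5%), the same share as of protein-coding genes. Desmosome and tight junction parts were above the floor beside CDH1, which was not: DSG2, a desmosomal cadherin, read 10.12, 10.43, 9.69 and 9.81, TJP1, a tight junction scaffold, 9.69, 9.81, 9.41 and 9.38, and DSP, which anchors keratins, 9.2, 9.6, 8.8 and 9.06. EPCAM, an adhesion protein of epithelia, read 8.52, 8.5, 8.34 and 8.21, and CLDN7, a claudin, 8.04, 7.98, 7.84 and 7.83. CLDN1, another claudin, read 6.96, 5.29, 5.84 and 6.1, so it was just under the floor on array B and was highest on array A. The regulators of the epithelial state were low: ESRP1, a splicing factor of epithelial cells, read 3.38 ± 0.12, GRHL2, which activates junction genes, 3.04 ± 0.27, OVOL2, a repressor of ZEB1, 3.59 ± 0.15, and the small GTPase RAB25 3.81 ± 0.17. Among genes used to mark mammary stem and progenitor cells 6 of 14 (42.9%) were above the floor, under the share of all genes: ITGB1, CD44, NT5E, CD24, PROCR and ALDH1A3. CD24, often low in CD44-high breast lines, read 8.13, 8.41, 8.56 and 8.74 and was above the floor in all 6 probe sets, each of which has a name that marks possible cross-matching. PROCR, a receptor for protein C found on mammary stem cells, read 8.71, 8.09, 7.99 and 7.89. ALDH1A1 (2.77 ± 0.15) and PROM1 (2.41 ± 0.14) were among the lowest signals of that list.

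**Figure D3:**
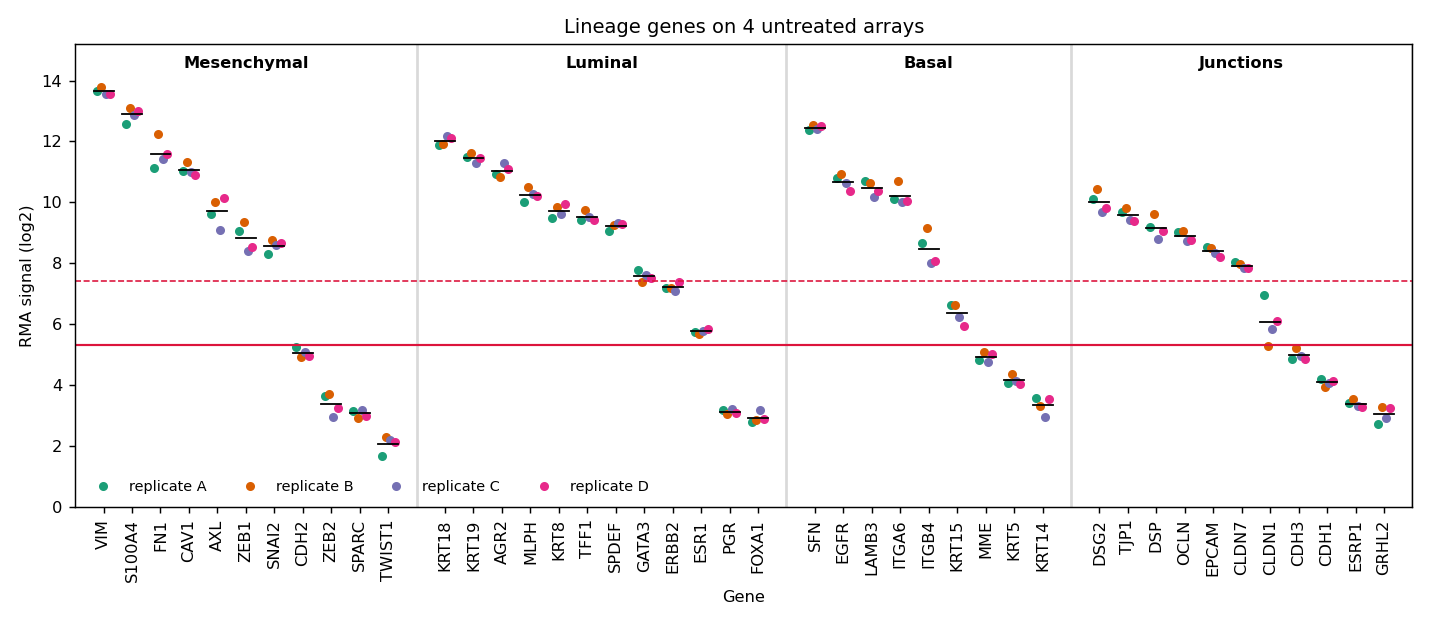
Log2 RMA signal of named mesenchymal, luminal, basal and junction genes, 1 coloured point per array and a black bar at the mean of 4, with the floor (solid line, 5.30) and the stricter bound (dashed line, 7.40). Points of a gene lie close together for most genes, and in each panel some genes sit below the solid line on all arrays, such as TWIST1, FOXA1, KRT14 and GRHL2.

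Markers of other cell types were mostly below the floor, as 16 of 65 measured genes (24.6%) exceeded it against 53.6% of all genes. Of the fibroblast list 2 of 12 were above the floor, COL1A1 (7.12 ± 0.07, with 2 of 5 probe sets above) and PDGFRB (5.65 ± 0.16). The collagen COL3A1 read 3.32 ± 0.13, the proteoglycan DCN 4.52 ± 0.15 and FAP, a protease of activated fibroblasts, 2.78 ± 0.18. The leukocyte list gave 2 of 10, LYZ and CD3D, with the leukocyte-wide phosphatase PTPRC at 4.2 ± 0.43 and the B cell marker MS4A1 at 3.17 ± 0.1. The counts were higher for the endothelial list, 5 of 12 (41.7%), and the melanocyte list, 3 of 7 (42.9%), both still under the share of all genes. In the endothelial list ESAM (8.66 ± 0.21), ROBO4 (7.97 ± 0.23), PECAM1 (7.59 ± 0.16) and the receptors FLT1 (5.96 ± 0.05) and TEK (5.4 ± 0.07) were above the floor, whereas the endothelial cadherin CDH5 (3.22 ± 0.18), VWF (4.41 ± 0.17) and ERG (3.09 ± 0.13) were not. FLT1 and TEK were above the floor only in their highest probe set, with their others at means of 3.69 or lower. The neuronal list had TUBB3 (11.16 ± 0.14) and the enolase ENO2 (7.68 ± 0.18) above the floor and CHGB (2.9 ± 0.11) and NEFL (2.82 ± 0.14) far below. MITF, a melanocyte factor also used elsewhere, read 8.96 ± 0.24, and SOX10 (5.65 ± 0.24) and MC1R (5.64 ± 0.11) were above the floor, with TYRP1 at 2.37 ± 0.06 and MLANA at 3.35 ± 0.12. ALB, the liver's main plasma protein, read 2.53 ± 0.14. FABP4, a fatty acid carrier of adipocytes, read 8.81, 6.44, 6.4 and 6.17, high on array A, with the adipocyte hormone ADIPOQ at 2.59 ± 0.16. In bulk RNA a few cells with much of a transcript and many cells with little cannot be told apart.

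Parts of the TGFβ pathway were above the floor at each of its steps. TGFβ is secreted in a latent complex, released by integrins or proteases, and read by a pair of receptor kinases that phosphorylate SMAD2 and SMAD3, which enter the nucleus with SMAD4. Among ligands and release factors 12 of 14 were above the floor (85.7%, against 53.6% of all genes), 6 of them above the stricter bound. TGFB1 read 8.55, 8.72, 8.56 and 8.54 and TGFB2 8.44, 7.8, 8.04 and 8.11, while TGFB3 (5.02 ± 0.21) was below the floor. Both ligands were thus above the floor on all 4 arrays in cells that had been given none. LTBP1, which stores the latent complex in the matrix, read 7.83, 8.64, 8.37 and 8.4, and THBS1, a thrombospondin that can activate it, 8.5, 9.2, 9.35 and 9.35. ITGAV, the integrin chain that pulls the ligand free, read 9.6, 10.56, 9.68 and 9.92, and its partner ITGB8 5.42, 6.69, 6.12 and 6.36. For both chains array A was the lowest. LRRC32, which tethers latent TGFβ on immune cells, lay below the floor at 4.85 ± 0.15.

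Of 14 receptors of the family 9 were above the floor (64.3%, against 53.6% of all genes and 61.5% of protein-coding ones). TGFBR2, the ligand-binding kinase, read 10.37, 10.92, 10.68 and 10.84, and TGFBR1, the kinase that signals, 8.34, 9.29, 9.03 and 9.11. TGFBR3, the co-receptor betaglycan, had a mean of 7.34 ± 0.32. The BMP receptor BMPR2 read 7.79, 9.13, 8.52 and 8.64, and the activin and BMP receptors ACVR1 (8.03 ± 0.19), ACVR1B (6.78 ± 0.09), ACVR2A (6.68 ± 0.14) and ACVR2B (7.02 ± 0.2) were above the floor too. Only 1 of 6 probe sets of ACVR1B and 1 of 3 of ACVR2B were above it. Receptors typical of endothelium or other tissues were not: ACVRL1 read 4.77 ± 0.11, ENG 4.84 ± 0.2, ACVR1C 4.53 ± 0.26 and BMPR1B 4.36 ± 0.22.

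SMADs and their partners were above the floor in 15 of 18 cases (83.3%, against 53.6% of all genes and 61.5% of protein-coding ones). SMAD2 read 8.61, 8.57, 8.51 and 8.63, SMAD3 8.46, 8.32, 8.18 and 8.31 and SMAD4 7.7, 8.1, 8.08 and 8.08, so all 3 carriers of the TGFβ signal were above the floor on every array. SMAD5, a carrier of BMP signals, read 7.92 ± 0.22, whereas SMAD1 (5.39 ± 0.13) crossed the floor and SMAD9 (4.73 ± 0.33) lay below it. The inhibitor SMAD7 read 5.51, 6.5, 6.01 and 5.88 and the inhibitor SMAD6 6.59 ± 0.23. The other probe sets of SMAD6, at means of 5.36 or lower, were not above the floor. SMURF2, a ubiquitin ligase for SMADs and receptors, read 10.83, 11.18, 11 and 11.02. PMEPA1, a TGFβ target that limits SMAD signalling, read 8.22, 10.53, 9.95 and 10.28, so array A lay well below the other 3 arrays. SKIL, a repressor that SMADs both induce and degrade, read 7.04, 8.78, 7.7 and 7.71. For PMEPA1, SKIL and SMAD7 array A was the lowest, and 9 of the 15 members above the floor were lowest there. The share of all genes lowest on array A was not set beside that count.

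Ligands and antagonists of the BMP and activin branches were above the floor in 11 of 21 cases (52.4%), near the 53.6% of all genes. FST, follistatin, which traps activins, read 11.25, 11.6, 10.97 and 11.05, and the activin subunit INHBB 9.57, 9.21, 9.22 and 9.4, whereas INHBA (5.24, 5.69, 4.81 and 5.46) lay about the floor. BMP4 read 8.35, 8.71, 8.99 and 9.12 and its antagonist NOG 8.37, 8.4, 8.07 and 8.1. GDF15, a stress-induced family member, had a mean of 8.64 ± 0.69 with the widest spread of the list, 8.66, 7.65, 9.14 and 9.1. GREM1 (2.39 ± 0.13), LEFTY1 (3.2 ± 0.17) and INHBE (2.73 ± 0.18) were far below the floor.

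Of 48 receptor tyrosine kinases 24 were above the floor (50%), close to the share of all genes, with a list median of 5.48. Above the stricter bound, which 28.6% of all genes exceeded, were 8 of the 48. Those 8 were EGFR, MET, AXL, EPHA2, FGFR1, IGF1R, RYK and PTK7. MET, the receptor for HGF, read 10.16, 10.44, 9.91 and 10.03, and EPHA2, an ephrin receptor, 9.56, 9.52, 9.46 and 9.57. FGFR1, a receptor for fibroblast growth factors, read 9.18, 9.09, 8.97 and 9.08 and IGF1R 8.51, 8.34, 8.02 and 8.24. EPHA4, another ephrin receptor, read 5.46, 8.03, 7.07 and 7.26, close to the floor on array A and far above it on array B, the widest spread of the list. KIT of blood precursors (3.18 ± 0.16), KDR of vessels (3.61 ± 0.15), MUSK of muscle (3.11 ± 0.17) and ROR2 of the embryo (2.76 ± 0.1) were far below the floor.

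Their ligands were above the floor in 24 of 38 cases (63.2%, against 53.6% of all genes and 61.5% of protein-coding ones). GAS6, the ligand of AXL, read 11.06, 11.02, 10.91 and 10.98, and PDGFC, a ligand of the PDGF receptors, 10.6, 10.92, 10.8 and 10.94. VEGFA, which acts on vessels, read 10.03, 10.61, 10.46 and 10.49. VEGFC, which acts on lymphatics, read 9.92, 10.24, 10.04 and 9.88. For each of these 4 ligands the arrays spanned under 1. NRG1, which binds ERBB3 and ERBB4, read 10.0 ± 0.29. Of the EGFR ligands TGFA (8.82 ± 0.09), HBEGF (9.19 ± 0.3) and EREG (7.64 ± 0.33) were above the floor and EGF (3.2 ± 0.24) and BTC (2.79 ± 0.17) below. HGF (3.97 ± 0.16), FGF2 (3.9 ± 0.11), FGF7 (2.46 ± 0.12) and IGF1 (4.99 ± 0.21), factors that stroma often supplies, were below the floor. The widest ligand was FGF5, with 6.73, 6.02, 6.01 and 5.76.

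A set of 79 ligand and receptor pairs, put together after the levels had been seen, was sorted by which ends were above the floor. Both ends were above it in 40 pairs, the ligand alone in 16, the receptor alone in 17 and neither in 6. With the stricter bound both ends were above it in 9 pairs. The pairs share members and 53.6% of all genes were above the floor, so nothing is read from these counts beyond which pairs they hold. Pairs with both ends included TGFA and EGFR, GAS6 with AXL, MERTK and TYRO3, TGFB1 and TGFB2 with TGFBR2, BMP4 with BMPR2, JAG1 with NOTCH2, and MIF with CD74. Receptor-only pairs included HGF and MET, IGF1 and IGF1R, CXCL12 and CXCR4, and TNFSF10 with TNFRSF10A and TNFRSF10B, though TNFSF10 (5.18, 5.42, 5.37 and 5.75) was below the floor on array A alone. Ligand-only pairs included VEGFA and KDR, and IL6 and IL6R, whose receptors were below the floor on every array. The ligand-only pairs CSF1 and CSF1R, and IL11 and IL11RA, are less clear, because CSF1R (5.17, 5.98, 5.69 and 5.88) and IL11RA (4.9, 5.54, 5.43 and 5.44) fell below the floor on array A alone. A transcript above the floor at both ends does not measure protein or signalling.

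**Figure D4:**
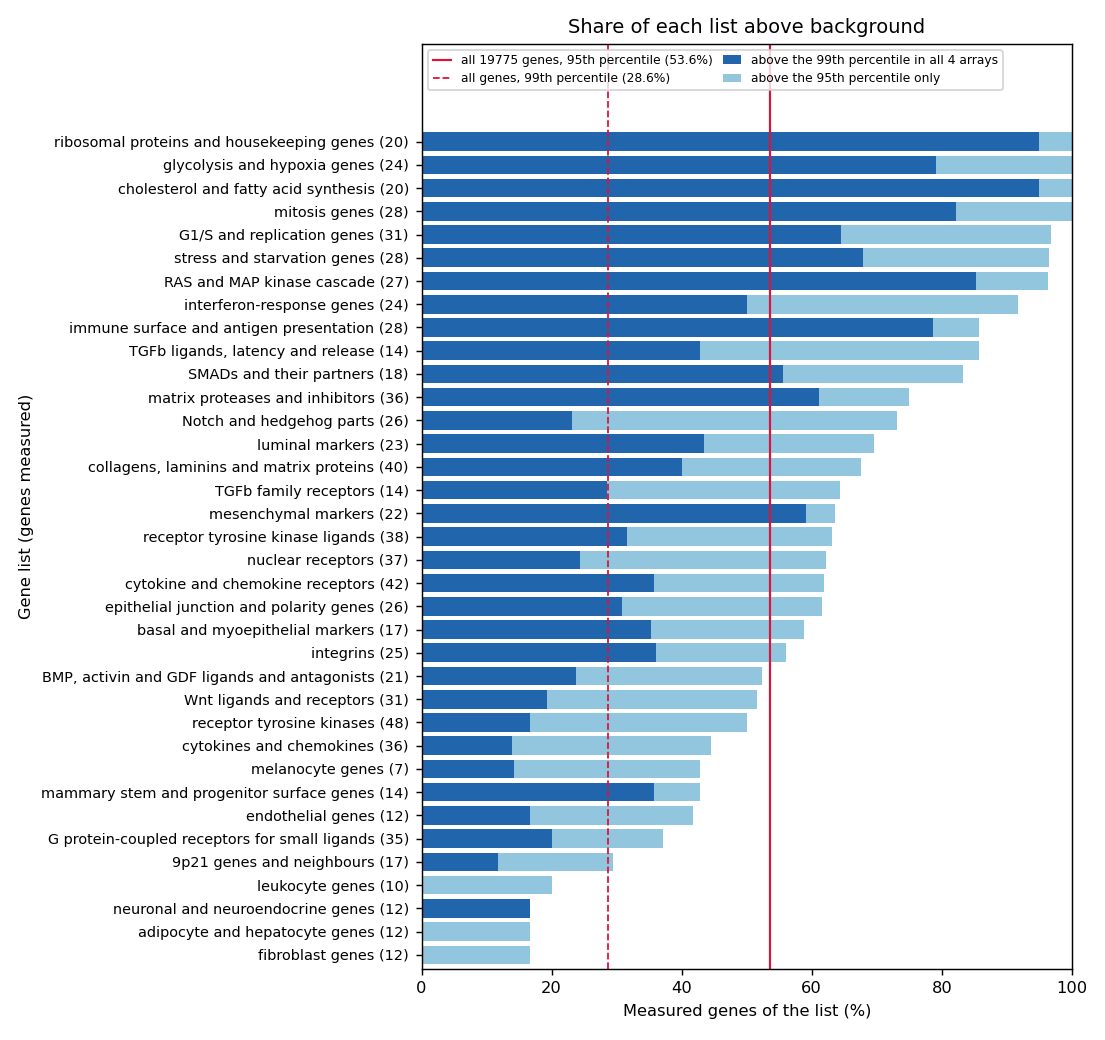
Bars give, for each of 36 gene lists, the percentage of measured members above the stricter bound on all 4 arrays (dark) and above the floor only (light), with the number measured in brackets. The vertical lines mark 53.6% and 28.6% of all 19775 genes: lists such as glycolysis and mitosis reach 100%, while the fibroblast, adipocyte and hepatocyte, neuronal and leukocyte lists end left of both lines.

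The RAS and MAP kinase cascade carries receptor tyrosine kinase signals to the nucleus. It was above the floor in 26 of 27 members (96.3%, against 53.6% of all genes), 23 of them above the stricter bound. Feedback genes of ERK, whose transcripts follow its activity in many cells, were high: DUSP6 read 11.62, 11.85, 11.64 and 11.63, DUSP4 11.54, 11.58, 11.5 and 11.76 and SPRY2 10.74, 10.7, 10.4 and 10.47. PHLDA1, another ERK-dependent gene, read 11.86, 12.03, 11.84 and 11.85. For each of these 4 genes the arrays spanned under 1. FOSL1, an AP-1 subunit, had a mean of 9.89 ± 0.36, and the ETS factors ETV4 and ETV5 of 8.27 ± 0.29 and 8.81 ± 0.27. DUSP1, an immediate early phosphatase, read 10.88, 9.49, 9.1 and 9.3, high on array A. NF1, a brake on RAS, was the member not above the floor, at 2.35 ± 0.07 in the 1 probe set that represents it here.

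Cytokines and chemokines were above the floor in 16 of 36 cases (44.4%), under the share of all genes. MIF, a constitutively made cytokine, read 12.04, 11.77, 11.86 and 11.95, with little spread. CXCL8, the neutrophil chemokine interleukin 8, read 11.02, 9.64, 9.98 and 10.06, IL11, a cytokine of the gp130 family, 8.96, 7.55, 7.69 and 7.62, and IL6, the best-known member of that family, 8.32, 7.13, 7.14 and 7.41. CXCL1, another neutrophil chemokine, read 8.61, 7.21, 8.28 and 8.56 and IL24 9.72, 7.21, 7.28 and 7.31. In each of these 5 genes array A was the highest, and 13 of the 16 members above the floor were highest there. The share of all genes highest on array A was not set beside that count. LIF, another gp130 cytokine, had a mean of 8.43 ± 0.11. CCL2 (2.65 ± 0.06), IL33 (2.41 ± 0.09), TSLP (2.19 ± 0.17), CXCL5 (2.35 ± 0.17) and CXCL6 (2.29 ± 0.15) were far below the floor.

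Of 42 cytokine and chemokine receptors 26 were above the floor (61.9%, against 53.6% of all genes and 61.5% of protein-coding ones). IL6ST, the gp130 chain shared by the IL6 family, read 10.26, 10.87, 10.41 and 10.5, OSMR, the oncostatin receptor, 9.18, 9.41, 9.29 and 9.37, and LIFR 7.32, 7.4, 6.82 and 6.95. The specific chain IL6R (3.05 ± 0.07) was below the floor, and IL11RA (5.33 ± 0.29) was below it on array A. The following receptors of the TNF family were above the floor on all arrays: TNFRSF21 read 10.9 ± 0.08, TNFRSF10B 9.9 ± 0.16, TNFRSF10A 7.96 ± 0.22 and TNFRSF1A 9.03 ± 0.07, with FAS at 5.79 ± 0.14. The FAS call is a weak one, because its other probe sets, at means of 5.06 or lower, were not above the floor. CXCR4, the receptor for CXCL12 and a known homing receptor of this line, read 9.66, 9.25, 9.32 and 9.33. IFNAR1, a chain of the type I interferon receptor, read 6.08, 7.13, 7.08 and 7.2, lowest on array A. The chemokine receptors CXCR2 (2.47 ± 0.1), CCR2 (2.93 ± 0.08) and CCR7 (2.97 ± 0.13) were below the floor.

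G protein-coupled receptors for small ligands were above the floor in 13 of 35 cases (37.1%), under the share of all genes. ADORA2B, an adenosine receptor, read 10.34, 9.68, 10.1 and 9.97, and LPAR1, a receptor for lysophosphatidic acid, 10.11, 9.28, 9.51 and 9.58. F2R, the thrombin receptor, had a mean of 8.07 ± 0.26, HRH1, a histamine receptor, of 7.85 ± 0.15, and GPRC5A, an orphan receptor, of 10.21 ± 0.33. EDNRB, an endothelin receptor, read 8.46, 7.51, 8.24 and 8.25, and GPER1, a membrane receptor reported to respond to oestrogen, 5.42, 6.29, 6.13 and 6.36. Array B was the lowest for EDNRB and array A for GPER1. S1PR1 (2.66 ± 0.12), P2RY1 (2.42 ± 0.09), LPAR6 (2.4 ± 0.12) and PTGER2 (3.26 ± 0.14) were below the floor. Nuclear receptors were above the floor in 23 of 37 cases (62.2%, against 53.6% of all genes and 61.5% of protein-coding ones). Of these 9 were above the stricter bound. NR3C1, the glucocorticoid receptor, read 10.23, 10.47, 10.21 and 10.43, and the lipid-sensing receptors PPARG 9.74, 9.1, 9.39 and 9.24 and PPARD 9.44, 9.1, 8.98 and 9.16. NR2F6, an orphan receptor, had a mean of 9.85 ± 0.11, and NR1D2, a clock repressor, read 8.27, 8.4, 7.95 and 7.48. ESR2 (4.75 ± 0.21), ESRRG (2.54 ± 0.13) and NR5A2 (2.91 ± 0.07) were below the floor, as was PGR.

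Wnt ligands and receptors were above the floor in 16 of 31 cases (51.6%), near the 53.6% of all genes. DKK1, a secreted Wnt antagonist, read 12.59, 12.42, 12.19 and 12.23, and its relative DKK3 6.62, 5.75, 5.6 and 5.96. For DKK3 only 1 of 6 probe sets was above the floor. The receptors FZD2 (9.12 ± 0.23), FZD6 (8.89 ± 0.36) and FZD7 (8.17 ± 0.09) and the co-receptors LRP5 (8.54 ± 0.15) and LRP6 (8.16 ± 0.13) were above the floor. Among the ligands WNT5B read 7.4 ± 0.06 and WNT5A 6.14 ± 0.12, while WNT1 (3.69 ± 0.32) and WNT2 (3.92 ± 0.04) were below. In the Notch and hedgehog list 19 of 26 were above the floor (73.1%, against 53.6% of all genes and 61.5% of protein-coding ones). Only 6 of the 26 were above the stricter bound, which 28.6% of all genes exceeded. JAG1, a Notch ligand, read 10.9, 11.74, 11.21 and 11.44, the receptor NOTCH2 10.33, 10.29, 9.95 and 10.21 and the DNA-binding partner RBPJ 10.54 ± 0.21. SMO, the hedgehog signal transducer, was at 5.24 ± 0.1 and not above the floor, with DHH at 3.62 ± 0.09. HES1, a Notch target, read 5.71, 6.83, 7.11 and 7.19, lowest on array A.

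Integrins were above the floor in 14 of 25 cases (56.0%), near the 53.6% of all genes. Matrix genes were above it in 27 of 40 cases (67.5%), against 61.5% of protein-coding genes. ITGB1, the common beta chain, read 11.64, 12.09, 11.65 and 11.79, ITGA2, a collagen-binding chain, 10.69, 11.57, 10.86 and 10.97, and ITGA1, another such chain, 5.88, 7.31, 6.73 and 7.0. All 3 were highest on array B. Leukocyte chains were split. ITGA4 (2.84 ± 0.13), ITGAL (4.23 ± 0.09), ITGAM (4.27 ± 0.18), ITGAX (4.6 ± 0.08) and ITGAD (4.66 ± 0.04) were not above the floor. ITGB2 (7.21 ± 0.52), ITGAE (10.42 ± 0.12) and ITGB7 (5.59 ± 0.15), chains also found on leukocytes, were above it. CCN1 and CCN2 are matrix genes that respond to serum and to the YAP factor. After starvation CCN1 read 12.28, 11.85, 11.64 and 11.68. CCN2 read 11.18, 11.2, 10.97 and 11.05. COL13A1, a membrane collagen, read 11.41 ± 0.07, and COL4A1 and COL4A2 of the basement membrane 9.39 ± 0.47 and 10.21 ± 0.32. COL5A2 (2.75 ± 0.18), NID2 (2.92 ± 0.15) and SPP1, osteopontin (2.96 ± 0.15), were below the floor. COL7A1, the anchoring collagen of skin and other epithelia, read 5.9, 7.38, 6.8 and 7.07, and COL8A1, a collagen of vessel walls and stroma, 11.08, 10.22, 10.15 and 10.24. Array A lay farthest from the others for both, as the lowest for COL7A1 and the highest for COL8A1.

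Proteases and inhibitors of the matrix were above the floor in 27 of 36 cases, against 53.6% of all genes and 61.5% of protein-coding ones. Above the stricter bound, which 28.6% of all genes exceeded, were 22 of the 36. The inhibitors TIMP1 (11.81 ± 0.32), TIMP2 (11.48 ± 0.09) and TIMP3 (11.32 ± 0.17) were among the highest. The plasminogen activators and their receptor were above the floor: PLAT read 11.13, 11.8, 11.2 and 11.2, PLAU 10.06, 10.91, 10.55 and 10.86 and PLAUR 9.49, 9.51, 9.3 and 9.36. MMP14, a membrane-bound collagenase, read 9.06, 8.99, 8.89 and 8.78, and MMP1, a secreted collagenase, 8.64, 8.86, 8.85 and 9.02. The gelatinases MMP2 (4.47 ± 0.16) and MMP9 (4.2 ± 0.14) were below the floor, as were MMP3 (2.64 ± 0.2) and MMP7 (3.36 ± 0.04). ADAM19, a membrane-bound sheddase, read 7.03, 8.26, 7.34 and 7.42, highest on array B.

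Genes of immune surface and antigen presentation were above the floor in 24 of 28 cases (85.7%, against 53.6% of all genes). B2M read 12.51 ± 0.03, HLA-B 11.57 ± 0.04 and HLA-C 11.5 ± 0.06. Class II genes, which professional antigen-presenting cells use, were above the floor as well: CD74 read 9.99, 9.68, 9.79 and 9.6, HLA-DRA 7.36, 7.4, 7.74 and 7.94 and HLA-DMA 7.9, 7.87, 8.2 and 8.32. Their master activator CIITA was not, at 4.96 ± 0.14 in the highest of its 3 probe sets. CD274, the ligand of PD-1, read 8.88, 7.95, 7.51 and 7.6, and VTCN1, a related inhibitor, 3.73 ± 0.18. Interferon-response genes were above the floor in 22 of 24 cases (91.7%, against 53.6% of all genes), 12 of them above the stricter bound. IFITM3 read 11.37, 11.23, 11.19 and 11.19, ISG15 9.75, 9.54, 9.72 and 9.74 and BST2 9.82, 9.65, 9.98 and 9.93. DDX60, a helicase of antiviral defence, read 5.96, 7.01, 6.08 and 6.1, highest on array B. MX2 (4.36 ± 0.08) and IFI44L (3.39 ± 0.3) were the members below the floor.

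After the 24 h without serum, cell cycle genes were above the floor almost throughout. All 28 mitosis genes and 30 of 31 genes of G1/S and replication exceeded it, against 53.6% of all genes. CCNB1, the mitotic cyclin, read 10.72, 9.82, 10.77 and 10.82, and UBE2C, which helps destroy it, 10.7, 9.85, 10.74 and 10.73. MKI67, the Ki-67 proliferation antigen, read 8.93, 8.28, 8.58 and 9.08, and PLK1, a mitotic kinase, 8.09, 6.87, 8.03 and 7.83. AURKB, another mitotic kinase, read 8.62, 7.29, 8.44 and 8.49. TYMS, which makes thymidylate, read 11.27, 10.24, 11.04 and 11.12, and PCNA, the replication clamp, 10.37, 10.05, 10.46 and 10.38. Array B was the lowest for all 7 of these genes but not for every gene of the lists: CDK6, a kinase of G1, read 8.18, 9.11, 8.35 and 8.51. CDC6, which loads the replicative helicase, read 7.68, 6.87, 8.25 and 8.21, again lowest on array B. CCND1, the cyclin of early G1, had a mean of 10.02 ± 0.19, and the inhibitors CDKN1B and CDKN1A means of 9.28 ± 0.08 and 8.95 ± 0.19.

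Along chromosome 9 a run of genes was not above the floor. In RefSeq order the 24 genes from FOCAD to ELAVL2 include 22 measured genes, 14 of them interferons. Of the 22, 0 were above the floor, against 53.6% of all genes, with means from 2.13 to 5.15. The run ends where the calls change, so the count of 0 follows from how it was drawn and is no test. Interferon genes are silent in most unstimulated cells, so the others carry the description. MTAP, an enzyme of the methionine salvage pathway, read 4.61, 4.64, 4.6 and 4.66 and none of its 6 probe sets exceeded the floor. CDKN2A, an inhibitor of the G1 kinases, read 5.37, 5.06, 5.29 and 4.88, so array A alone passed the floor. CDKN2B, its neighbour and relative, read 4.43, 4.06, 4.31 and 4.05. FOCAD (3.01 ± 0.22), KLHL9 (2.86 ± 0.17) and HACD4 (2.81 ± 0.16), which many cell types transcribe, were lower still in signal. The measured neighbours on either side were above the floor: MLLT3 read 5.71 ± 0.28 before the run, and TUSC1 8.11 ± 0.32, CAAP1 9.17 ± 0.02, PLAA 7.66 ± 0.12 and IFT74 6.71 ± 0.33 after it. MLLT3 is a weak call, under the stricter bound, and its other probe sets, at 4.99 and 3.19, were not above the floor. Expression arrays do not measure gene copies, and the DNA of these cells was not analysed here.

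Metabolic and stress genes were above the floor almost throughout, against 53.6% of all genes. All 20 genes of cholesterol and fatty acid synthesis exceeded it, 19 of them the stricter bound. SCD, which desaturates fatty acids, read 11.93, 12.11, 12.01 and 12.04, FDPS, of the mevalonate pathway, 11.84, 11.82, 11.84 and 11.78, and HMGCS1, an enzyme that sterol shortage induces, 10.33, 10.59, 10.38 and 10.68. All 24 glycolysis and hypoxia genes were above the floor too, with LDHA at 12.95 ± 0.09, ENO1 at 12.46 ± 0.13 and PGK1 at 12.23 ± 0.08, and with PFKFB4 lowest in signal at 7.03 ± 0.18. Of 28 stress and starvation genes 27 were above the floor. MT2A, a metallothionein, read 12.68 ± 0.07, HSPA5, a chaperone of the endoplasmic reticulum, 12.25 ± 0.12, and ATF4, the factor of the amino acid response, 11.16 ± 0.1. TXNIP, which FOXO factors and glucose induce, read 11.66, 11.02, 10.89 and 11.11, and IRS2, a FOXO target in starved cells, 10.02, 10.24, 10.17 and 10.17. CHAC1, an ATF4 target that degrades glutathione, read 8.07, 7.33, 7.08 and 7.01, highest on array A. KLF9 (5.67 ± 0.3) was the member not above the floor on every array. With no serum-fed cells in the set, no level can be ascribed to starvation.

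The 4 arrays were close to each other, with A and B farthest from the rest. Pearson r across all genes, which are not independent replicates, ran from 0.9905 between A and B to 0.9969 between C and D. The median absolute difference of a gene above the floor was 0.22 between A and B and 0.10 between C and D. The median SD of genes above the floor was 0.159, and of the others 0.139. It was 0.142 for means of 5.3 to 6, 0.172 for 7 to 8 and 0.0659 for 12 and more. Of the 10607 genes above the floor 300, or 2.83%, spanned over 1 on the log2 scale between their lowest and highest array, and 8 spanned over 2. Distance was taken from the gene's median over the 4 arrays. Array A lay farthest in 168 of the 300 (56.0%), array B in 103 (34.3%), array D in 23 and array C in 6.

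The 25 genes with the largest SD relative to genes of like signal had array A farthest out in 18 cases. FABP4, IL24 and PMEPA1 led them. ALPP, placental alkaline phosphatase, read 8.67, 6.14, 7.75 and 7.62, and APOBEC3G, a cytidine deaminase against retroviruses, 6.04, 7.88, 7.87 and 7.78. S100A2, a calcium-binding protein of basal epithelium, read 11.1, 12.35, 11.98 and 11.9, and SLCO4A1, an organic anion carrier, 10.34, 11.63, 11.55 and 11.42. The steroid-reducing enzyme AKR1C3 read 9.46, 11.02, 10.75 and 10.59. Its relative AKR1C1 read 8.24, 9.99, 9.63 and 9.69. Array A was the highest for ALPP and the lowest for those other 5 genes. GINS4, a replication factor, stood out on array C, with 6.79, 5.85, 8.3 and 6.15, and the long non-coding RNA MALAT1 on array D, with 10.01, 10.6, 10.24 and 9.0.

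Members of some lists deviated together on 1 array. Over the 28 mitosis genes array B lay 0.57 below the mean of the 4 arrays, and arrays A, C and D 0.20, 0.16 and 0.21 above it, and 27 of the 28 genes were lowest on array B. The list means on arrays A to D were 9.19, 8.42, 9.15 and 9.19. For the 30 genes of G1/S and replication array B lay 0.23 below, with 21 of them lowest there. Fewer dividing cells and less of these transcripts per cell cannot be told apart. Over the 16 cytokines and chemokines array A lay 0.52 above the mean and array B 0.35 below, with 13 highest on A and 10 lowest on B. On array B the 14 integrins lay 0.29, the 27 matrix genes 0.25 and the 14 mesenchymal markers 0.22 above the mean, and 11 of those 14 markers were highest there. On array A the SMAD list lay 0.26 and the TGFβ ligand list 0.22 below the mean, and on array B 0.21 and 0.19 above it. The shares of all genes that were highest or lowest on each array were not set beside these counts. Arrays A and B were farthest out in 56.0% and 34.3% of the 300 genes spanning over 1. The counts of highest and lowest members are therefore not read as particular to the lists. Luminal markers, nuclear receptors, Wnt ligands and receptors, cytokine and chemokine receptors, and BMP and activin ligands stayed within 0.04 of the mean on every array.

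Control values of the arrays stand beside these shifts. The mean signal of the Bacillus subtilis control probe sets was 7.38, 6.33, 7.21 and 7.21 on arrays A to D, lowest on array B, and that of the E. coli hybridisation controls 8.86, 8.52, 8.96 and 8.90. The 3′ minus 5′ difference of ACTB was 0.89, 0.67, 0.79 and 0.72, and that of GAPDH 0.14, 0.09, 0.06 and 0.08. Medians over all probe sets were 4.63 or 4.64 on each array. The part of these values in the shift of the mitosis and cytokine lists was not tested.

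**Figure D5:**
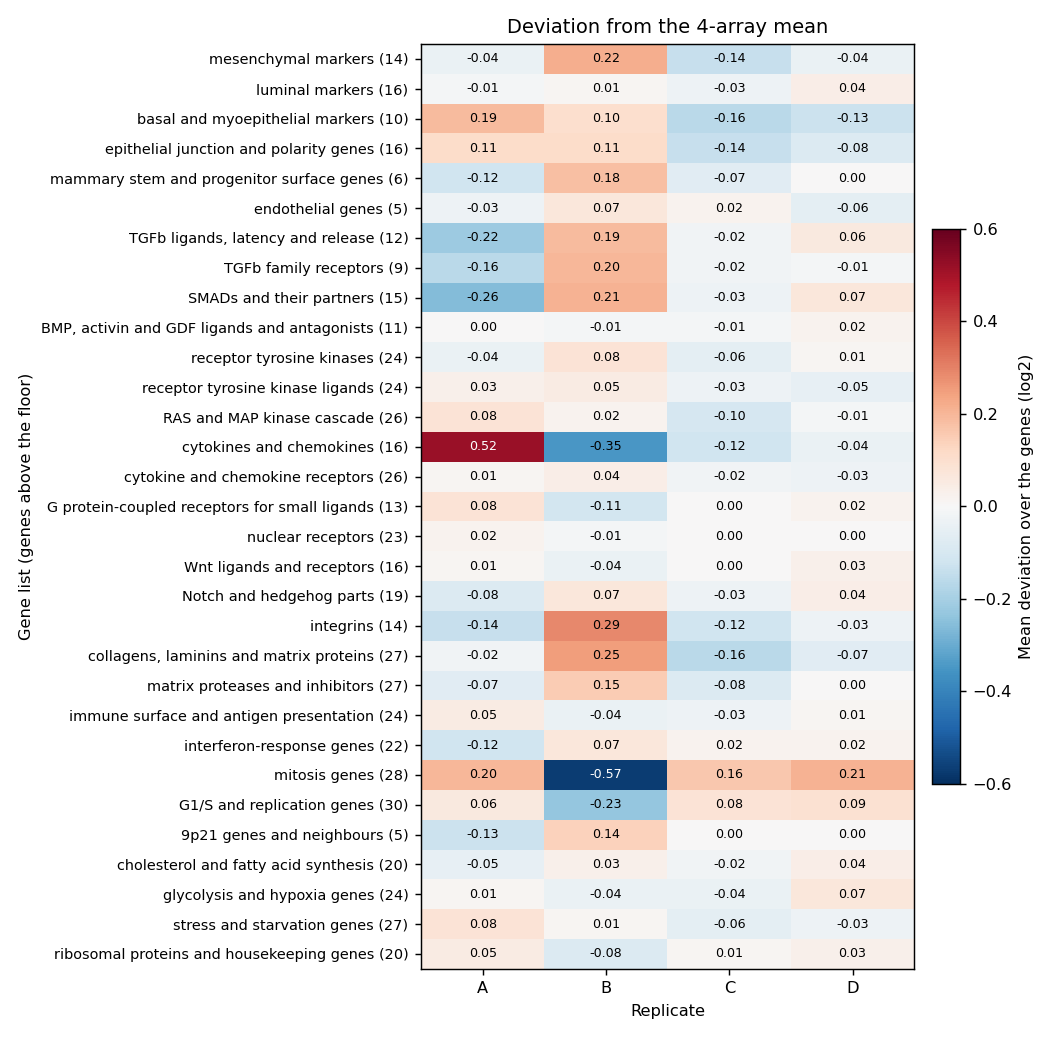
Each cell gives the mean log2 deviation of an array from the 4-array mean over the members of a list above the floor, for lists with 5 or more such members (number in brackets), with red above and blue below the mean. The deepest cells are the mitosis list on array B (-0.57) and the cytokine list on array A (0.52), while rows such as the luminal, Wnt and nuclear receptor lists are nearly white.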

How the data were processed

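Total RNA of 4 untreated samples was hybridised to Affymetrix arrays after Trizol extraction and biotin labelling, per the labels' protocols. The authors made log2 signals from the scans with RMA (background correction, normalization between arrays and summary of each probe set), per the submitters' processing notes and the range of the deposited values. Nothing used here names the version or the log base, or says which arrays shared a normalization. The number of arrays limits the precision.

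Of 54675 probe sets 62 controls were removed, and 41091 of the other 54613 name 1 gene in GEO's platform annotation of 2016 (1801 name several, 11721 none). For 41037 the Entrez identifier was found in RefSeq's gene table. Gene choice, floor, counts, SD and promoter ratios were computed with pandas 2.3.3 and numpy 2.4.6 in Python 3.11.15, tested on simulated data, and drawn with matplotlib 3.10.9. The 4 columns of treated arrays were not used. Groups came from the labels, and with 1 group no test was run.

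The 36 gene lists hold 917 symbols, of which 839 matched a measured gene and 557 (66.4%) were above the floor. Named genes are the 7 markers, genes among the 25 highest signals and the 25 widest spreads, and from each list mainly the 4 highest, the 2 lowest and the widest member above the floor. Other members named, and the ligand and receptor pairs, were chosen after their values were seen. The arrays and lists were chosen with earlier results of these data known. Alternatives covered the floor, the call rule, the probe sets, the scaling and each array left out.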

Additional observations from a re-analysis of the deposited data

Results flagged for a closer look

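An array was taken to stand apart for a gene when its gap to the nearest other array, divided by the range of the 4, exceeded Dixon's 95% critical value for 4 samples. Chance alone gives this for about 1 in 20 genes, and it was met by 749 of the 10607 genes above the floor (7.06%), with array A apart in 349, B in 286, D in 68 and C in 46. It was met by 24 of 241 named genes that reached the floor on some array, and by 2 of 31 lists with at least 5 members above the floor. Part of the named genes were picked for wide spread on these same arrays, and they needed only some array above the floor. Their count therefore cannot be set against the 7.06%. No explanation for these values was tested.

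Replicate B stood apart for the mitosis list, with a mean signal of 8.42 against 9.15 to 9.19 on the others, and for the G1/S and replication list, with 8.17 against 8.46 to 8.49. Within the first list CCNB1 read 9.82 on array B against at least 10.72 elsewhere, UBE2C 9.85 against at least 10.7 and AURKB 7.29 against at least 8.44. Higher on array B than on any other were COL4A1 at 10.09, COL4A2 at 10.69, PLAT at 11.8, DDX60 at 7.01, RYK at 8.32 and TGFB1 at 8.72. For DUSP6 (11.85), PHLDA1 (12.03) and B2M (12.56) array B was also the highest, and for ISG15 (9.54) it was the lowest.

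Replicate A stood apart upward for IL24 at 9.72, FABP4 at 8.81, IL11 at 8.96, COL8A1 at 11.08, FOSL1 at 10.43, ACTA2 at 6.42 and ENO2 at 7.95. IL24 lay between 7.21 and 7.31 on the other arrays, and IL11 between 7.55 and 7.69. Replicate A stood apart downward for APOBEC3G at 6.04, SLCO4A1 at 10.34, IFNAR1 at 6.08 and SMAD4 at 7.70. SMAD4 lay between 8.08 and 8.10 on the other arrays, so its gap, though large against their spread, was small in size. No named gene had array C or D apart by this measure.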

How the results depend on the processing

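Centring the arrays and normalizing their quantiles again kept the floor, the number of genes above it, the counts of the 5 lineage lists, the mitosis shift of array B, the median SD, the number of genes spanning over 1 and the CpG difference within 1.5 times or 1 SD. Calling genes by the mean of the arrays, run for the floor, the number of genes and the list counts, kept the floor, that number and the 5 lineage counts within 1.5 times. The pairs, the correlations between arrays and the counts of arrays that stand apart were not recomputed. The floor itself was 5.88 from tissue-restricted genes, 4.8 at the 90th percentile, 7.40 at the 99th and 4.94 without probe sets whose names mark possible cross-matching. At the 99th percentile 5660 genes, 10 luminal, 6 basal and 8 junction genes were above it, and without the cross-matching probe sets 8 of the 15 luminal genes still measured were. Of the 36 list counts 23 moved by over 1.5 times at the 99th percentile, 8 without those probe sets, 8 with averaged probe sets, 7 with the tissue-restricted genes and 3 at the 90th percentile. Genes spanning over 1 numbered 154 with averaged probe sets and between 88 (without A) and 264 (without C) with 1 array left out. Alternatives chosen after seeing the data gave 12 such genes on arrays C and D alone. The CpG ratio difference of 0.37 was 0.26 with averaged probe sets, 0.31 without the cross-matching ones and, chosen after seeing the data, 0.41 for genes with 1 listed start and 0.33 for protein-coding genes. The means of 202 of 338 named genes moved by over 1 SD when probe sets were averaged. The cause of these changes was not tested. No paired analysis was possible because 1 group was described. Signals near the floor cannot be told from background.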
